A study of Homo sapiens with 6 samples.

Results

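SOX proteins are transcription factors that bind DNA through a shared domain, the high mobility group (HMG) box, and are sorted into groups by how similar that box is. In the developing nervous system the SOXB1 factors SOX2 and SOX3 keep progenitors undifferentiated, the SOXC factors SOX4, SOX11 and SOX12 act in cells that have begun to become neurons, the SOXD factors SOX5 and SOX6 act with other SOX proteins in neurons, glia and cartilage, and the SOXE factors SOX8, SOX9 and SOX10 work in neural stem cells, the neural crest and glia. Sympathetic neurons, from whose precursors neuroblastoma arises, are themselves neural crest derivatives, and SOX11 and SOX4 are active during their development. The 10 genes described here were found by symbol in the count and FPKM tables and are 10 of 60676 annotated genes.

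The RNA came from SK-N-BE, 1 human neuroblastoma cell line, in medium with 10 μM retinoic acid, which induces neuronal traits in these cells, at 1.5 days of differentiation. The control group, si-SCR, received a scrambled small interfering RNA (siRNA), and the other group, si-CyCoNP, received an siRNA pool against CyCoNP, a transcript of the long noncoding RNA gene LINC02381. Both groups had retinoic acid, and 3 libraries were made from each. No undifferentiated cells were compared, so the values describe the knockdown of CyCoNP during differentiation and not differentiation itself. Effects of the siRNA pool other than on CyCoNP were not tested in these libraries. The study reports a rescue with a CyCoNP that resists the siRNAs, and knockout cells, for other genes and not for the SOX genes. The labels do not say that the replicates were separate cultures, so p-values measure the spread between libraries, which may be technical.

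Total counts ran from 3762009 to 4799407 fragments per library, and 13966 genes had a mean of at least 1 FPKM (fragments counted, scaled by gene length and library size) in either group and were tested. LINC02381 was at 14.9, 12.9 and 15.4 FPKM in si-SCR against 0.973, 1.65 and 0.676 in si-CyCoNP, a log2 fold change of -3.78 (SE 0.223, edgeR quasi-likelihood test, adjusted p = 6.84e-14), so the labels held in every library. GAPDH, a reference gene, had a log2 fold change of -0.02 (SE 0.072, edgeR adjusted p = 0.868), and this sign turned under 4 of 16 alternative settings. Of all genes tested 28.4% passed an adjusted p of 0.05, 14.2% higher and 14.2% lower in si-CyCoNP. The neuroblastoma label matched the RNA, since all 11 adrenergic neuroblastoma markers examined passed the filter in these libraries.

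The members differ from each other mainly outside the HMG box, and fragments that map to more than 1 place were not counted, so the likeness of the boxes bears on what a count can hold. The longest run of encoded residues that all 10 boxes share was used to line them up. Below are the 30 bases of that run in the coding sequence (GENCODE annotation of GRCh38) for the SOXC and SOXE genes, with capitals for each base that differs from SOX4.
SOX4: aagcgacccatgaacgccttcatggtgtgg
SOX11: aagcgGccGatgaacgcGttcatggtAtgg
SOX12: aagAgGccGatgaacgcAttcatggtgtgg
SOX8: aagcgGcccatgaacgcAttcatggtgtgg
SOX9: aagcgGcccatgaacgccttcatggtgtgg
SOX10: aagcgGcccatgaacgccttcatggtgtgg
Within these 30 bases SOX9 and SOX10 have the same letters and each differs from SOX4 at 1 base, whereas SOX11 and SOX12 each differ from SOX4 at 4. Over 70 aligned codons of the box SOX4 and SOX11 had the same base at 88.6% of positions, SOX8 and SOX9 at 91.9%, SOX9 and SOX10 at 91.4%, and SOX4 and SOX9, of different groups, at 75.2%. A fragment could be lost only where it fitted more than 1 member about equally well, and the box is a small part of each transcript. How often this occurred was not tested. SOX10 had no count in any library while SOX9 had 85 to 188, so SOX9 fragments did not appear under SOX10.

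One SOXC gene made up most of the SOX RNA. SOX4 had a mean of 246 FPKM over the 6 libraries and was higher than 99.2% of the genes tested, and it made up 86.0% to 91.6% of the summed FPKM of the 10 genes in each library. SOX11 followed with a mean of 12.7 FPKM and a range of 8.79 to 17.0, SOX12 with 10.4 and a range of 9.01 to 13.8, and SOX9 with 7.27 and a range of 4.52 to 9.96. SOX11 and SOX12 overlapped in both groups. SOX12 stood above SOX9 in si-SCR, at 9.01 to 9.15 FPKM against 4.52 to 5.88, and their ranges met in si-CyCoNP, at 9.27 to 13.8 against 8.47 to 9.96. The lowest SOX4 value, 217 FPKM, stood above every value of the other members. SOX5, SOX2 and SOX8 came next with means of 0.442, 0.349 and 0.300 FPKM, then SOX6 with 0.0167. These FPKM values divide by a length of 4470 bases for SOX8, 11062 for SOX5 and 19640 for SOX6. Their canonical transcripts, those the annotation picks per gene, have 3087, 7076 and 9304 bases, while SOX2 has 2512 by both. The order of SOX2 and SOX8 thus depends on the length used. SOX5 stood above SOX2 and SOX8 in si-SCR and overlapped both in si-CyCoNP, and SOX2 and SOX8 overlapped in both groups. SOX3 and SOX10 had a count of 0 in all 6 libraries, which allows up to 0.625 to 0.797 CPM (counts scaled to the library total) in a library, or 0.115 over all 6 together.

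In si-CyCoNP, 1 of the 4 members that passed the filter rose, SOX9, and 1 fell, SOX4, against a background of 14.2% of all genes in each direction. Neither reached a 2-fold change, a log2 fold change of 1. Of all tested genes 2.28% passed both this and the adjusted p of 0.05 upward, and 2.98% downward. The median log2 fold change of the 4 tested members was 0.10 and that of all tested genes was 0.0053. The other 6 members fell under the filter, 4 of them with some counts and 2 with none.

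**Figure D1:**
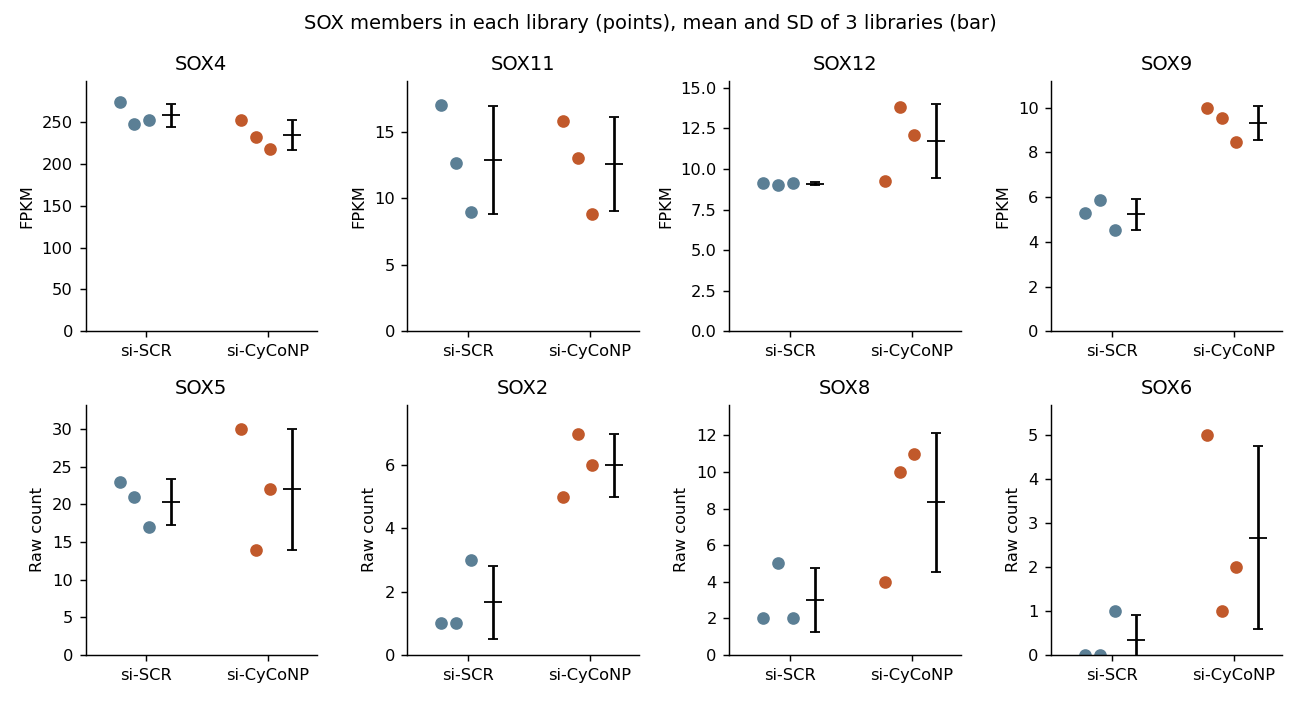
Each point is 1 library of SK-N-BE cells after si-SCR or si-CyCoNP, in FPKM for the 4 tested SOX genes (top row) and in raw counts for the 4 under the filter (bottom row), with the mean and SD of 3 libraries as bars. SOX9 lies between 4.52 and 5.88 FPKM in si-SCR and between 8.47 and 9.96 in si-CyCoNP, while the SOX4 and SOX11 groups overlap and the bottom panels hold 30 counts at most.

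SOX9 specifies neural crest cells, maintains neural stem cells and directs cartilage formation. It is on chromosome 17 (17:72121020-72126416, plus strand, GRCh38) and its transcript has 3 exons. SOX9 had 89, 87 and 85 counts in si-SCR against 188, 159 and 138 in si-CyCoNP, which is 5.27, 5.88 and 4.52 FPKM against 9.96, 9.52 and 8.47. Every si-CyCoNP library stood above every si-SCR library. The means were 5.23 ± 0.682 and 9.32 ± 0.769 FPKM (SD, n = 3 each), and the log2 fold change was 0.78 (SE 0.147), a 1.71-fold rise that passed the edgeR quasi-likelihood test with Benjamini-Hochberg adjustment over all genes (adjusted p = 0.000173). The rise passed under all 16 alternative settings, with log2 fold changes of 0.66 to 0.87. These are bulk libraries, so more cells that hold SOX9 RNA and more SOX9 RNA per cell cannot be told apart.

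SOX4 is expressed widely in immature neurons and in many tumours. It is a gene of 1 exon on chromosome 6 (6:21593751-21598619, plus strand), as 2.65% of the tested protein-coding genes are. SOX4 had 5727, 4526 and 5887 counts in si-SCR against 5906, 4808 and 4385 in si-CyCoNP, which is 274, 247 and 253 FPKM against 253, 232 and 217. The groups overlapped, since si-CyCoNP replicate 1 stood above si-SCR replicate 2. The means were 257.9 ± 14.1 and 234.1 ± 17.8 FPKM (SD, n = 3 each), and the log2 fold change was -0.21 (SE 0.078), 86.6% of the si-SCR level (edgeR adjusted p = 0.0459). This call was narrow. It was lost under 8 of 16 alternatives, with adjusted p-values of 0.0508 to 0.228, among them the fits without si-SCR replicate 1 (-0.15, adjusted p = 0.213), without si-CyCoNP replicate 2 (-0.20, adjusted p = 0.119) and without si-CyCoNP replicate 3 (-0.17, adjusted p = 0.209), while the direction was lower under all 16. Scaling by library totals alone, the scale of the FPKM values above, gave -0.14 (adjusted p = 0.175).

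SOX11, the other large SOXC gene of neuroblastoma and of developing sympathetic neurons, varied between replicates far more than it did between groups. It is a gene of 1 exon on chromosome 2 (2:5692384-5701385, plus strand) with a 3′ untranslated region (3′UTR) of 7338 bases, longer than that of 96.9% of tested genes. SOX11 had 657, 429 and 385 counts in si-SCR against 682, 499 and 328 in si-CyCoNP, which is 17.0, 12.7 and 8.94 FPKM against 15.8, 13.0 and 8.79. In each group the libraries spanned nearly the same range. The coefficient of variation was 31.3% in si-SCR and 28.1% in si-CyCoNP, a mean above that of 96.3% of the 4662 tested genes within 2-fold of its FPKM, whose median was 8.75%. The log2 fold change was -0.10 (SE 0.168, 95% interval -0.43 to 0.23, edgeR adjusted p = 0.702). It turned to 0.17 without si-SCR replicate 1 and to 0.09 without si-CyCoNP replicate 3, and passed as lower without si-SCR replicate 3 (-0.33, adjusted p = 0.0038). Libraries with the same replicate number stood in the same order in both groups, and whether a number marks a shared culture or day is not given in the labels. ENSG00000242540 shares 74 exon bases with SOX11 on the same strand and had 0 to 4 counts.

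SOX12, the third SOXC gene, is a weaker activator than SOX4 and SOX11. It is a gene of 1 exon on chromosome 20 (20:325552-330224, plus strand), and at 62.2% its GC content was higher than that of 91.3% of tested genes. SOX12 had 182, 157 and 202 counts in si-SCR against 206, 272 and 232 in si-CyCoNP, which is 9.15, 9.01 and 9.12 FPKM against 9.27, 13.8 and 12.1. The groups did not overlap, but si-CyCoNP replicate 1 lay just above the si-SCR libraries, which were almost equal to each other. The means were 9.10 ± 0.073 and 11.7 ± 2.30 FPKM (SD, n = 3 each), and the log2 fold change of 0.29 (SE 0.129, 95% interval 0.04 to 0.55) did not pass the edgeR test (adjusted p = 0.0929). It passed with library totals alone (0.36, adjusted p = 0.0389), with the replicate number as a block (0.28, adjusted p = 0.0383) and without si-CyCoNP replicate 1 (0.44, adjusted p = 0.0129), and was 0.16 without si-CyCoNP replicate 2. In all, 2 of the 4 tested members, SOX9 and SOX12, had groups that did not overlap, against 40.3% of all genes tested.

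**Figure D2:**
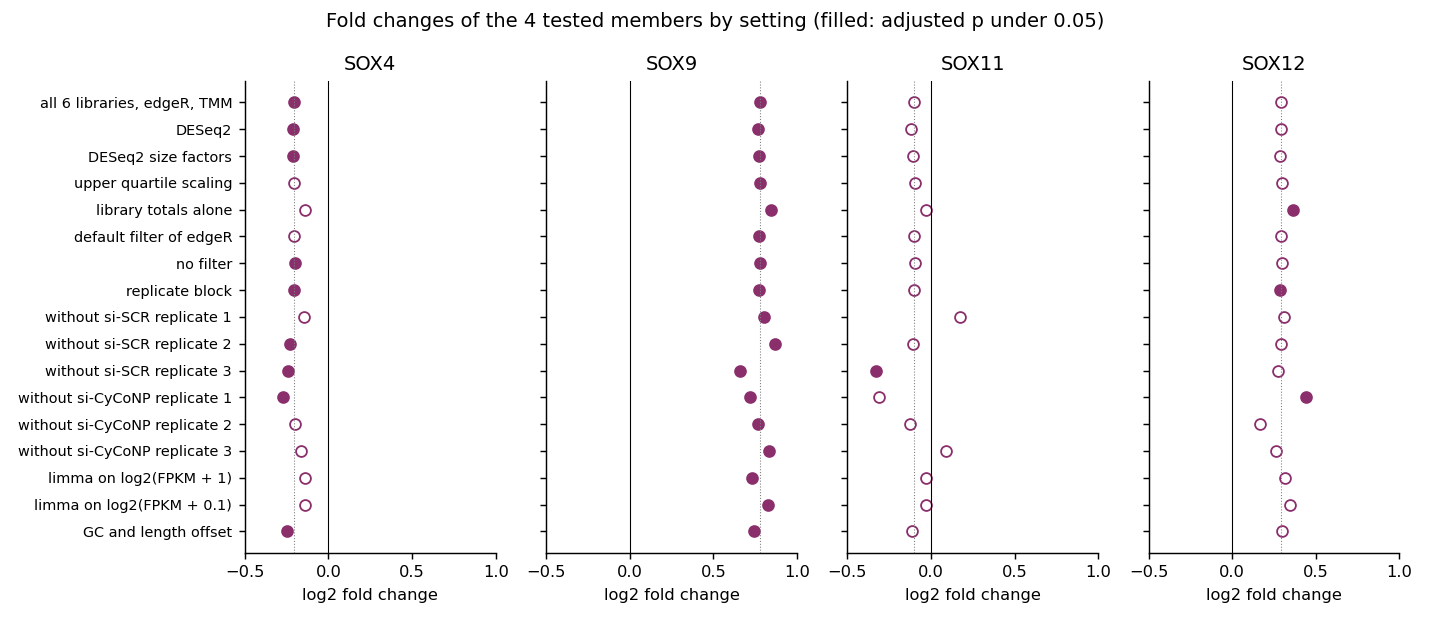
Log2 fold changes, si-CyCoNP minus si-SCR, of the 4 tested SOX genes in the reported fit (top row of each panel, dotted line) and under 16 alternatives, with filled circles for an adjusted p under 0.05. SOX9 is filled in every row, SOX4 is filled in the reported fit and 8 of 16 alternatives, SOX11 crosses 0 without si-SCR replicate 1 or without si-CyCoNP replicate 3, and SOX12 is filled in 3 alternatives.

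The members with few counts were compared by their counts, with an exact permutation test of CPM, which with 3 against 3 libraries cannot give a two-sided p below 0.1. SOX2, the pluripotency and neural progenitor factor on chromosome 3 (3:181711925-181714436, plus strand), had 1, 1 and 3 counts in si-SCR against 5, 7 and 6 in si-CyCoNP. All si-CyCoNP libraries stood above all si-SCR libraries, and the exact permutation p was 0.1, the smallest possible. The summed counts were 5 and 18, a ratio per total count of 3.50 with an exact 95% binomial interval of 1.25 to 12.1 that covers counting error only. In an edgeR fit with no filter, SOX2 had an unadjusted p of 0.045 and an adjusted p of 0.204 among 26702 genes, of which 7.69% were called higher. Of 6179 genes under the filter with at least 5 counts in all, 9.11% were likewise higher in si-CyCoNP with no overlap in FPKM.

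SOX8, a SOXE gene on chromosome 16 (16:981770-986979, plus strand), had 2, 5 and 2 counts in si-SCR against 4, 10 and 11 in si-CyCoNP. The groups overlapped by 1 library on each side (exact permutation p = 0.2), and the summed counts of 9 and 25 gave a ratio of 2.7 (1.22 to 6.58, counting error only). SOX6, a SOXD gene on chromosome 11 (11:15966449-16739591, minus strand), had 0, 0 and 1 counts in si-SCR against 5, 1 and 2 in si-CyCoNP, so that 1 library of each group had a single count. The sums were 1 and 8, a ratio of 7.78 with an interval of 1.04 to 345 (exact permutation p = 0.1), which fixes little about its size. With no filter the edgeR adjusted p-values were 0.2 for SOX8 and 0.322 for SOX6. SOX5, the other SOXD gene, on chromosome 12 (12:23529504-24562544, minus strand), had 23, 21 and 17 counts in si-SCR against 30, 14 and 22 in si-CyCoNP. These groups overlapped fully, with a ratio of 1.05 (0.732 to 1.52, exact permutation p = 1).

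SOX3, on the X chromosome (X:140502985-140505069, minus strand), is the SOXB1 partner of SOX2 in neural progenitors and had no counts. SOX10, on chromosome 22 (22:37970686-37987422, minus strand), is the defining factor of Schwann cell precursors, glia and melanocytes and had no counts either. POLR2F lies on the opposite strand and overlaps 260 exon bases of SOX10, and it had 159 to 267 counts, so its fragments were not assigned to SOX10. SOX2 lies inside an intron of the noncoding gene SOX2-OT, with no exon base in common, and SOX2-OT had 0 to 5 counts. The exons of ENSG00000283480 overlap 168 bases of SOX4 on the opposite strand, with 0 to 4 counts. Apart from these and the gene that shares exon bases with SOX11, no gene whose exons overlap a member had a count.

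The study concerns a microRNA, miR-4492, so the 3′UTRs of the tested members were searched for the letters that pair with its seed. The mature sequence from RefSeq (11:118910765-118910781, plus strand, GRCh38.p14) is printed with bases 2 to 8, the seed, in capitals. The stretches of 3′UTR that follow it hold CCAGCCC, the complement of that seed, in capitals, with positions counted from 1 at the first base of the 3′UTR.
miR-4492: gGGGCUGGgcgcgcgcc
SOX9, position 1922: tgtttccctcCCAGCCCcaaacctttt
SOX11, position 3133: gcccagcgtgCCAGCCCcggagttcag
SOX11, position 3475: agcctcctccCCAGCCCccacccctgg
SOX12, position 255: ccaccagcagCCAGCCCcctccgatac
SOX4 held none of these letters in its 3′UTR of 2660 bases, read in the direction of the transcript. The match was found in 23.4% of the 10490 tested genes that have an annotated 3′UTR, in 24.8% of the genes that fell and in 29.1% of those that rose. A match describes the sequence and is not a measured binding site. The study instead combined several prediction programs, on the most expressed isoform of each mRNA that fell past its fold threshold. The shares above rest on the seed letters and an adjusted p alone. They were not matched for 3′UTR length or GC content, so they cannot be set against the study's targets.

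Outside the members, 9 other SOX genes were examined, of which 2 passed the filter and 5 had no count. SOX18, a factor of blood and lymph vessels, had 35, 22 and 45 counts in si-SCR against 52, 62 and 48 in si-CyCoNP, with means of 4.19 ± 0.970 and 6.62 ± 1.07 FPKM (SD, n = 3 each). The groups did not overlap, but the log2 fold change of 0.57 (SE 0.236) did not pass the edgeR test (unadjusted p = 0.0213, adjusted p = 0.0688) and passed under 4 of 16 alternatives. SOX7, of the same group as SOX18, was at 1.6 ± 0.0276 and 1.17 ± 0.575 FPKM (log2 fold change -0.53, SE 0.355, edgeR adjusted p = 0.293). CASC15, a long noncoding RNA gene at the SOX4 locus, was at 2.88 ± 0.352 and 3.10 ± 0.732 FPKM, and its log2 fold change of 0.04 (SE 0.125, edgeR adjusted p = 0.842) turned sign without si-SCR replicate 3 or without si-CyCoNP replicate 1. It was the only one of 9 noncoding genes found at SOX loci that passed the filter.

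The HMG box is shared with factors outside the SOX family. Of 9 tested ones, 2 rose and 1 fell, with a median log2 fold change of -0.03. Of all tested genes, 14.2% passed in each direction. TCF7L2, a DNA-binding partner of β-catenin in Wnt signalling, fell from 23.1 ± 3.84 to 14.7 ± 0.354 FPKM (log2 fold change -0.72, SE 0.106, edgeR adjusted p = 6.64e-06), with no overlap. TCF7, its paralog, rose from 0.868 ± 0.0482 to 1.86 ± 0.511 FPKM (1.04, SE 0.223, adjusted p = 0.000629), a call lost with limma on the FPKM values (adjusted p = 0.0581 and 0.076). TCF7 passed the filter only through si-CyCoNP, the group where it was high. BBX, a more distant HMG box protein, rose from 9.04 ± 0.440 to 11.5 ± 0.867 FPKM (0.28, SE 0.093, adjusted p = 0.0251) and did not pass under 4 of 16 alternatives. POU domain factors are known partners of SOX proteins on DNA. Of 10 POU and PAX genes 1 passed the filter, POU2F1, at 5.78 ± 0.830 and 6.37 ± 0.479 FPKM (0.07, SE 0.102, edgeR adjusted p = 0.663), and this sign turned without si-SCR replicate 2. PAX6, a factor of neural progenitors, was under the filter with 5, 5 and 0 counts in si-SCR and none in si-CyCoNP, and passed as lower in the edgeR fit with no filter (adjusted p = 0.0313), although si-SCR replicate 3 was also at 0.

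**Figure D3:**
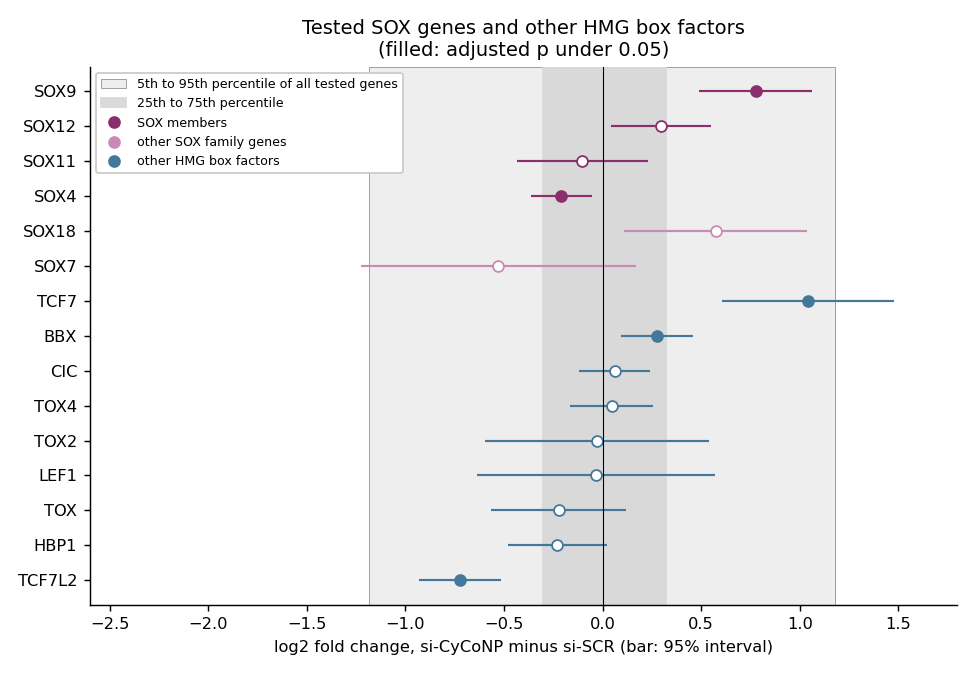
Log2 fold changes, si-CyCoNP minus si-SCR, with 95% intervals, of the tested SOX members, the other tested SOX genes and other HMG box factors (filled circles, adjusted p under 0.05). SOX9 and SOX4 are the filled SOX genes, TCF7 and TCF7L2 lie at 1.04 and -0.72, and the light and dark bands span the 5th to 95th and the 25th to 75th percentile of all tested genes.

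Genes of the cell states in which SOX factors work moved in both directions. Of 17 neural progenitor genes, in which SOXB1 and SOXE factors are active, 9 were tested and 6 had no count. Of the 9, 2 rose and 5 fell, with a median log2 fold change of -0.43. The background for this and the following lists was 14.2% of all tested genes in each direction. NES, the intermediate filament nestin and a known SOX target, rose from 21.1 ± 5.60 to 52.1 ± 8.97 FPKM (1.23, SE 0.125, edgeR adjusted p = 1.93e-08). MEIS2, a homeobox factor, rose as well (0.59, SE 0.087, adjusted p = 7.49e-06). MSI2, an RNA-binding protein of stem cells, fell by 0.59 on the log2 scale (SE 0.079, adjusted p = 1.94e-06), and CCND1, the cell cycle protein cyclin D1, fell by 0.40 (SE 0.071, adjusted p = 8.29e-05).

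Of 19 immature neuron genes, which include SOX4 and SOX11 targets, 13 were tested, with a median log2 fold change of -0.43. Of these, 8 fell and 1 rose, against a background of 14.2% each way. MLLT11 fell by 0.67 on the log2 scale (SE 0.080, edgeR adjusted p = 2.4e-07), DPYSL3, a protein of growing axons, by 0.64 (SE 0.077, adjusted p = 2.95e-07) and ELAVL4, a neuronal RNA-binding protein, by 0.62 (SE 0.099, adjusted p = 2.51e-05). SOX11 itself did not pass. SOX4 was at 86.6% of its si-SCR level, with groups that overlapped and a call lost under 8 of 16 alternatives. A link between SOX4 or SOX11 and these genes was not tested.

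Of 16 neural crest genes, the setting of SOX9 and SOX10, 13 were tested, with a median log2 fold change of -0.04. Of these, 5 rose and 3 fell, against a background of 14.2% each way. MYCN, the oncogene that is amplified in many neuroblastomas, rose from 428.2 ± 19.0 to 805.7 ± 57.7 FPKM (0.84, SE 0.076, edgeR adjusted p = 2.65e-09). SNAI2, a repressor of crest cells that leave the neural tube, fell from 7.08 ± 1.42 to 3.07 ± 0.454 FPKM (-1.27, SE 0.195, adjusted p = 9.76e-06). SNAI1, of the same list, went the other way, from a mean of 5.88 to 12.9 FPKM (1.07, SE 0.200, edgeR adjusted p = 0.000139). ID1 and ID3, inhibitors of proneural factors and targets of bone morphogenetic protein signals, rose with log2 fold changes of 0.80 (SE 0.138, adjusted p = 5.78e-05) and 0.66 (SE 0.117, adjusted p = 7.9e-05).

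Known targets of SOX9 in cartilage were low or at 0. Of 12 such genes 1 was tested and 3, COL9A1, ACAN and COMP, had no count, and COL2A1, the main cartilage collagen, had 0 or 1. COL9A3, the tested one, had 20, 9 and 13 counts in si-SCR against 23, 29 and 22 in si-CyCoNP, and its log2 fold change of 0.71 (SE 0.354) did not pass the edgeR test (unadjusted p = 0.0519, adjusted p = 0.137), although the groups did not overlap. COL9A3 passed the filter only through si-CyCoNP, with a mean of 1.17 FPKM against 0.673 in si-SCR. HAPLN1, a link protein of cartilage matrix, was under the FPKM filter with 11, 7 and 14 counts in si-SCR against 21, 30 and 22 in si-CyCoNP, and it was called higher with the default filter of edgeR (log2 fold change 1.09, adjusted p = 0.0223) and with no filter (1.09, adjusted p = 0.0224). Of 16 genes that SOX10 is known to drive in glia and melanocytes, 3 were tested, in libraries where SOX10 had no count. Of these, 2 rose and 1 fell, against a background of 14.2% each way. NGFR, a receptor of crest cells and glia, rose from 1.78 ± 0.0914 to 4.78 ± 0.771 FPKM (log2 fold change 1.36, SE 0.210, edgeR adjusted p = 1e-05). PMP22, a peripheral myelin protein, fell from 4.50 ± 0.427 to 1.8 ± 0.203 FPKM (-1.38, SE 0.236, adjusted p = 4.1e-05). Of the untested glial and pigment cell genes CDH19, GJB1, TYR and MLANA had no count, MBP and ERBB3 had 0 to 2, and MITF had the most, 15 to 40. The summed FPKM of the 16 genes was 9.02 to 10.8 in si-SCR and 16.9 to 22.8 in si-CyCoNP.

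**Figure D4:**
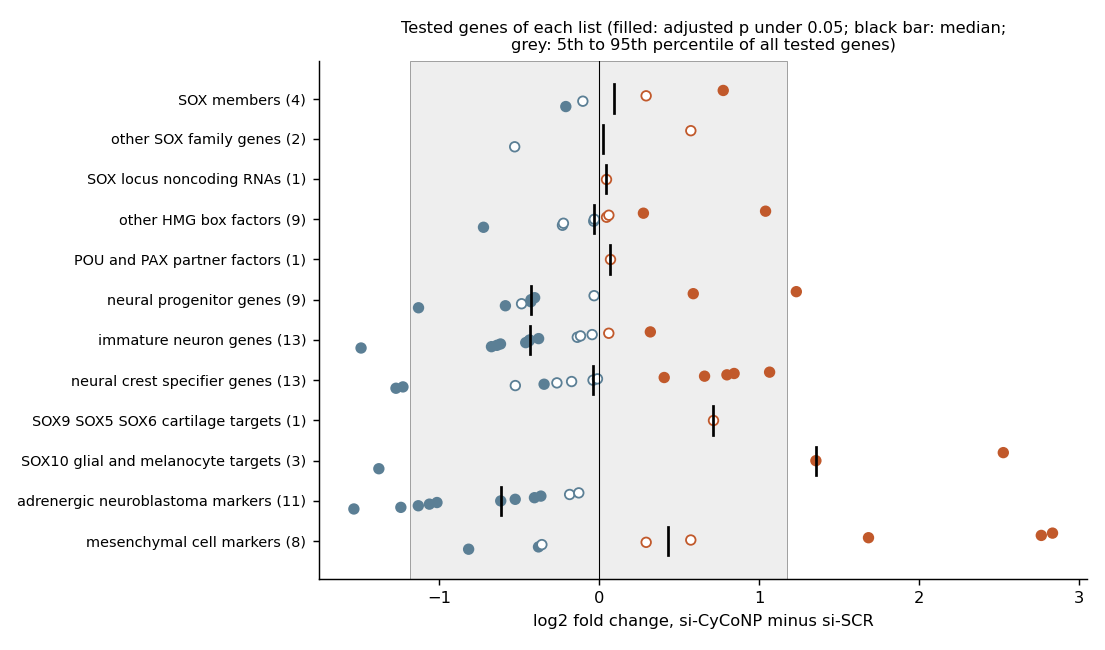
Each circle is 1 tested gene of a list (number tested in brackets), placed by its log2 fold change, si-CyCoNP minus si-SCR, and filled where the adjusted p is under 0.05, with the list median as a bar and the 5th to 95th percentile of all tested genes in grey. The 4 SOX members lie between -0.21 and 0.78, and the 11 adrenergic markers all lie below 0.

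Adrenergic markers of neuroblastoma were lower beside the SOX genes, and mesenchymal ones moved in both directions. Of 11 adrenergic markers 9 fell in the edgeR test, where 14.2% of all tested genes fell. All 11 log2 fold changes were negative, with a median of -0.61. The summed level was 2349 to 2812 FPKM in si-SCR against 1419 to 1514 in si-CyCoNP. PHOX2A, which specifies noradrenergic neurons, fell with a log2 fold change of -1.13 (SE 0.092, adjusted p = 4.49e-10). GATA2 fell by 1.06 (SE 0.079, adjusted p = 9.24e-11) and CHGB, a protein of secretory granules, fell by 1.01 (SE 0.090, adjusted p = 1.95e-09) on the log2 scale. Of 12 mesenchymal cell markers 8 were tested, 3 rose and 2 fell, against a background of 14.2% each way. The median log2 fold change was 0.43. All 3 that rose were under 1 FPKM in si-SCR and passed the filter only through si-CyCoNP. Their being tested thus depended on being high there, which favours rises in the count and the median. The collagen genes COL1A1 and COL3A1 rose from low levels, 0.450 ± 0.108 to 1.50 ± 0.230 FPKM (1.68, SE 0.263, adjusted p = 8.59e-06) and 0.148 ± 0.123 to 1.07 ± 0.224 FPKM (2.83, SE 0.536, adjusted p = 2.55e-05), while DCN fell by 0.82 (SE 0.158, adjusted p = 0.000223) and THY1 by 0.38 (SE 0.087, adjusted p = 0.00147) on the log2 scale. COL3A1 gave 3.58 without si-SCR replicate 2 and fell under the filter without si-CyCoNP replicate 2. The COL3A1 and DCN calls were lost with limma on the FPKM values. The defining mesenchymal genes PRRX1, TWIST2 and COL1A2 had no count. The summed level of the 12 markers was 49.9 to 61.8 FPKM in si-SCR and 53.3 to 60.5 in si-CyCoNP. Most of this sum was THY1, at means of 35.7 and 28.8 FPKM, and PDGFRB, at 12.9 and 16.5, which was not called. The sum therefore says little about the other markers. The part of these cell state markers in the SOX9 and SOX4 values was not tested.

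Among all tested genes, those whose log2 CPM ran closest to SOX9 over the 6 libraries were TIMM50, LINGO1 and ZNF397, with Pearson correlations of 0.9996, 0.998 and 0.997. For SOX4 they were BAZ1A-AS1, FEM1B and EXT2, with 0.995, 0.994 and 0.991. These are descriptions over 6 points that share the libraries and the 2 groups, taken as the highest of 13966 genes. LINGO1, a neuronal membrane protein, had a log2 fold change of 1.48, and TIMM50, a mitochondrial import subunit, one of 0.23.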

How the data were processed

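RNA-seq of 6 libraries was used, 3 si-SCR and 3 si-CyCoNP, grouped by the sample titles. The authors made stranded total RNA libraries after ribosomal RNA depletion, trimmed reads with Trimmomatic 0.39 and cutadapt 3.2, removed ribosomal reads with Bowtie2 2.4.2 and aligned the rest with STAR 2.7.7a to GRCh38, per the study's methods and the submitters' processing notes. The deposited count table holds the authors' raw counts of uniquely mapping fragments per Ensembl gene, so genes with close copies are undercounted. Whether duplicate reads were removed is not settled by the sources used here. The deposited FPKM table holds the authors' values scaled by gene length and library total, with no correction for composition. Total counts of 3762009 to 4799407 limit the precision of members under 1 FPKM, and floors of 3 counts and intervals cover counting error only. These totals are far below the average number of reads per sample in the study's methods, so they do not measure sequencing depth. Why they are lower was not tested.

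Counts were tested with edgeR 4.0.16 (quasi-likelihood, TMM scaling, R 4.3.3) on the 13966 genes with a mean of at least 1 FPKM in either group, with Benjamini-Hochberg adjustment and a threshold of 0.05, and the code was tested on simulated data. Members under the filter had exact permutation tests and exact binomial intervals of summed counts. Alternatives were DESeq2 1.42.0, the tool named in the study's methods, other scalings and filters, the replicate number as a block, each library left out, limma 3.58.1 on log2(FPKM + 1) and log2(FPKM + 0.1), and an offset for GC content and length. Members and gene lists were chosen with earlier results of these data known. Named genes are all members, the targeted and a reference gene, tested SOX family and SOX locus genes, up to 4 genes with the smallest p among those called in each other list (the highest FPKM where none was called), the 3 genes most like the top member in each direction, and genes sharing exons with a member. Some genes that this rule names are not reported here. Genes at or near 0, HAPLN1, PAX6, SNAI1 and PDGFRB are named beside the counts, chosen after their values were seen. Positions are from GENCODE on GRCh38. Of 14 noncoding genes at SOX loci 9 were matched by symbol.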

Additional observations from a re-analysis of the deposited data

How the results depend on the processing

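All 16 alternatives were run. SOX9 was called higher under each, with adjusted p up to 0.00677, and LINC02381 lower under each. With limma on log2(FPKM + 1) and log2(FPKM + 0.1), 1118 and 1113 genes fell in place of 1990, and with log2(FPKM + 1) 207 rose and 180 fell past a log2 fold change of 1 in place of 319 and 416. The number of SOX members called higher was 2 with library totals alone and with the replicate block, and 1 to 2 when each library was left out. The number called lower was 0 with upper quartile scaling (SOX4 adjusted p = 0.0508), library totals alone, the default filter of edgeR (0.0515) and both limma fits (0.228), and 0 to 2 when each library was left out. Leaving out each library gave 1611 to 2174 genes higher, 1617 to 2223 lower, and 295 to 400 higher and 359 to 507 lower past the log2 fold change of 1. Signs turned for GAPDH (0.048 with library totals alone, 0.049 with both limma fits, -0.058 to 0.025 with each library left out, positive without si-SCR replicate 2), and, with each library left out, for POU2F1 (-0.031 to 0.14, negative without si-SCR replicate 2), SOX11 (-0.33 to 0.17, positive without si-SCR replicate 1 or si-CyCoNP replicate 3) and CASC15 (-0.17 to 0.16, negative without si-SCR replicate 3 or si-CyCoNP replicate 1). The cause was not tested. Same-numbered libraries of the 2 groups deviated together with correlations of 0.0907, 0.0727 and 0.108, and each correlated best with its own number, a hint from the data and not from the design. The replicate block moved SOX12 and SOX18 past the threshold and kept SOX9 and SOX4 called. Library totals alone moved the median of all genes from 0.0053 to 0.0724. Counts of 0 to 11 limit SOX2, SOX6 and SOX8.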
